A study of Mus musculus with 6 samples.

Results

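ZBTB43 binding across the genome of foetal male germ cells was described from the 897 peaks that were called for ZBTB43 chromatin immunoprecipitation followed by sequencing (ChIP–seq) in 491K cells against non-specific IgG. All rows of that list were taken as members, out of 3588 peaks in the 4 lists of the series. The cells were prospermatogonia of 15.5 dpc male mouse foetuses, wild type for Zbtb43. They came from C57Bl/6J females mated with OG2 males, which carry 2 copies of the Oct4-EGFP transgene (B6;CBA-Tg(Pou5f1-EGFP)2Mnn/J). The paper's ChIP–seq methods also name OG2 females as mothers, so the copy number of the transgene may differ between foetuses. The cells were sorted by EGFP, which this transgene drives in germ cells. Their identity rests on that sort, as peak lists hold no expression values. The ZBTB43 library came from 491K cells and the IgG library from 415K cells (K, 1000 cells), each 1 library from cells of many foetuses combined, so there is no replicate error and no test of a peak. Both libraries share stage, Zbtb43 genotype and the presence of the transgene, and differ in antibody and cell number. The remaining 3 lists were called for the same ZBTB43 library against input (2043 peaks), and for ZBTB43 in 100K cells against IgG (18 peaks) or input (630 peaks).

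ZBTB43 is a zinc finger protein of the BTB family. Alternating purines and pyrimidines, such as runs of CA, TG or CG steps, form purine–pyrimidine repeats (PPRs), which can flip from the right-handed B form of DNA to left-handed Z-DNA. Prospermatogonia at this stage are mitotically arrested and regain DNA methylation, which is laid down mainly at CpG dinucleotides.

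A peak is given here by its gene when the centre lies in one, and otherwise by the nearest start of a protein-coding gene. Stretches of 20 bp or more in which each purine is followed by a pyrimidine and each pyrimidine by a purine are called alternating tracts. Of the kinds of repeat that recurred in the peaks, 3 are described here. They do not cover the list: TpA steps, which keep the alternation, also recurred and are counted below. Stretches of high-scoring examples of the first 2 kinds are printed from the plus strand of GRCm38.p6, the assembly that corresponds to mm10. None of the stretches overlaps an annotated exon. The first kind was a nearly uninterrupted CA or TG repeat, as under 2 intergenic peaks that are among the 10 highest. Capitals mark the bases in alternating tracts of at least 20 bp within the stretch.
nearest start 1700010I14Rik, chr17:9031072-9031211: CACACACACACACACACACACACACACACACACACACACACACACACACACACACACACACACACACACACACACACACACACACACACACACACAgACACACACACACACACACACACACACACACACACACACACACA
nearest start Gm11077, chr6:140692696-140692835: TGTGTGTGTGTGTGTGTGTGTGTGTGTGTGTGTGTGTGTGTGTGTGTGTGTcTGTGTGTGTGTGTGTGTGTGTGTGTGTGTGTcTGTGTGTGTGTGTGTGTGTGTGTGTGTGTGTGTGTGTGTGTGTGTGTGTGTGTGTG

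In the second kind, CpG steps recurred along the alternating tract every few TG or CA steps, so that the alternation was kept. Peaks of this kind lay near Chst1 and in introns of Mxi1 and Tshz2. The 160-bp stretch at the centre of the longest tract near Chst1, shown as the example, held 13 CpG, which capitals mark.
nearest start Chst1, chr2:92660806-92660965: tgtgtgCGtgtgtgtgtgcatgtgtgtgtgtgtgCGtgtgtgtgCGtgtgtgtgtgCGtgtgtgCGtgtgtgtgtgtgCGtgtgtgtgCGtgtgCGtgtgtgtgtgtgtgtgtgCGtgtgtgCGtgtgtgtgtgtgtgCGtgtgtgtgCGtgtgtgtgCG

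In the third kind, an A in place of a T broke the TG repeat at short intervals, giving GAG (CTC on the strand that reads CA). This ends the alternation, so that an array of over 1 kb may hold no tract of 20 bp. The peak nearest Esr2 was such an array, and repeats broken in the same way, but with short tracts, lay in introns of Pcdh7 and Spg11. The word TGTGAGTGTG, called the GA word and searched on both strands, was used to count these interruptions.

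The peaks were 118 to 1564 bp wide, with a median of 255 bp and quartiles of 154 and 452 bp. The score, taken to be the −log10 of the peak caller's q-value, multiplied by 10 and cut to a whole number, started at 13. Its median was 112 and its quartiles were 59 and 226, so the list had a long upper tail: 95 peaks (10.6%) scored 500 or more and 27 peaks (3.01%) 1000 or more. At the lower end, 34 peaks scored under 20, where a score of 20 corresponds to q = 0.01. Wider peaks tended to score higher (Spearman rho = 0.47 across 897 peaks, which share 1 library pair and are not replicates). The 5 lowest scores were all 13 and belonged to peaks in Dgki, Sergef and Rbms3 and to peaks nearest Creg1 and Creld2, all of which held an alternating tract.

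Among the 20 highest-scoring peaks, 9 were narrow (147 to 375 bp) and 11 were wide (506 to 1251 bp). The narrow ones included an intron of Mocos (score 3960, 165 bp) and the intergenic peak 42.8 kb from the start of 1700010I14Rik (score 2817, 175 bp, chr17:9031055-9031229). Mocos encodes the molybdenum cofactor sulfurase. Their longest tracts, of 342 and 389 bp, lay partly outside the peaks, with runs of 97 and 113 bp inside, and held no CpG and 3 and 2 TpA steps. Further narrow peaks lay nearest Creg1 (2136), Gm11077 (1921), Rftn1 (1872), Akap12 (1491) and Gm21961 (1424), and in an intron of Crybg3 (1632). The tract at the 147-bp peak nearest Rftn1 was 500 bp long and so extended far beyond the peak.

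The wide ones were led by the peak 12.6 kb from the start of Esr2, the gene of oestrogen receptor beta (score 2401, 1202 bp). An intron of Spg11, which encodes spatacsin, held a peak of score 2114 and 1137 bp, and the peak nearest Chst1, a sulfotransferase gene, scored 2020 over 826 bp with a 287-bp tract of 23 CpG. Peaks in introns of Mxi1, which encodes a partner of MAX, and Tshz2, a zinc finger gene, scored 1184 and 1211, with tracts of 259 and 274 bp that held 36 and 35 CpG. The peak at Shq1, whose product assembles small nucleolar ribonucleoproteins, scored 1173 and had a 423-bp tract with 54 CpG, and its centre lay in an annotated untranslated region. Hhat, the Hedgehog acyltransferase gene, held a peak of 1161 with a tract of 21 bp and a second peak of 611 at 182 bp from it. Fam135b (1521), Zfyve16 (1513), Ntm (1386) and Sv2b (1133) were the other wide ones.

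**Figure D1:**
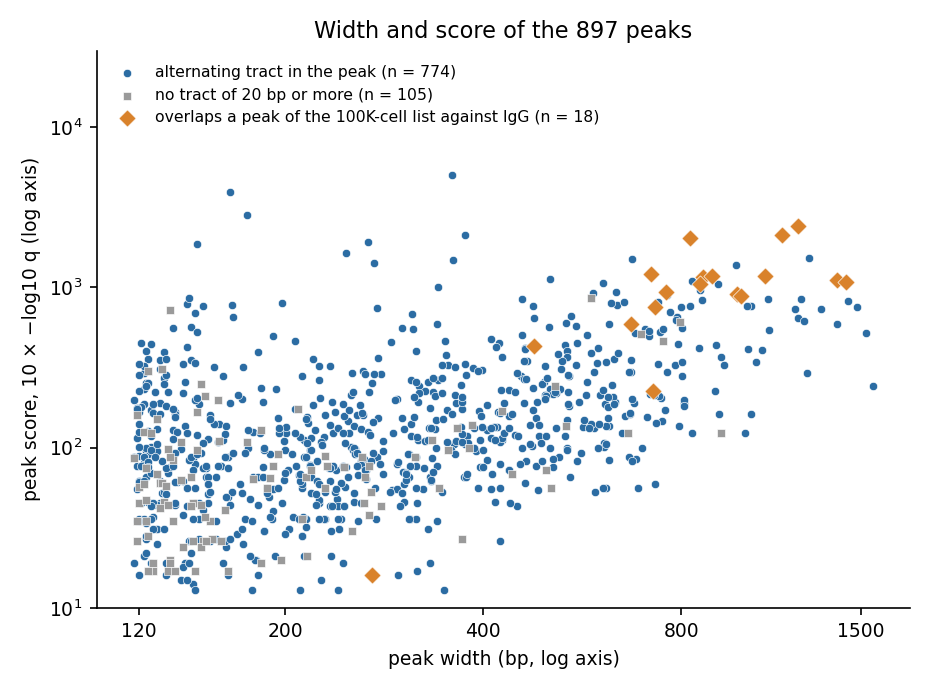
Width of each of the 897 peaks (x axis, bp, log scale) against its score (y axis, 10 times −log10 q, log scale); circles hold an alternating tract, squares hold none, and diamonds are the 18 peaks that overlapped a peak of the 100K-cell list against IgG. High scores occurred at both ends of the width range, but 16 of the 18 diamonds lie above 600 bp.

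Narrow and wide strong peaks differed in their values in the other lists. In the 491K list against input, which shares the ZBTB43 library, 892 of the 897 peaks had an overlapping peak. Its score divided by the score against IgG had a median of 2.14 and quartiles of 1.20 and 4.55. The quotient compares the strength of evidence against 2 controls and is not an enrichment. Over the 9 narrow peaks of the top 20 it ran from 1.21 to 13.3 with a median of 7.06, and over the 11 wide ones from 1.03 to 7.94 with a median of 1.31. At Mocos the score was 28657 against input and 3960 against IgG, whereas near Esr2 it was 2936 against input and 2401 against IgG. None of the 9 narrow peaks overlapped one of the 18 peaks of the 100K list against IgG, compared with 7 of the 11 wide ones, although all 9 narrow and 10 wide peaks overlapped a peak of the 100K list against input.

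The same order was seen over the whole list. In the 213 peaks of 118 to 150 bp the median quotient was 3.78 (quartiles 1.69 and 5.99). It was 2.70 in the 297 peaks of 151 to 299 bp, 1.82 in the 257 peaks of 301 to 597 bp, and 1.30 (quartiles 1.03 and 1.75) in the 130 peaks of 601 bp or more. The median scores against IgG of these classes were 79, 77, 136 and 363. Peaks that overlapped the 100K list against IgG numbered 0, 1, 1 and 16, while the share that overlapped the 100K list against input was 43.2%, 30.3%, 38.5% and 41.5%, with no order by width. The class limits were chosen after the widths were seen. The part played by depth and cell number of the control libraries was not tested, as the lists hold no read counts. Only 5 peaks had no partner against input: peaks in introns of Nav2 (score 36), Fancc (88), Abcg5 (56), St8sia5 (45) and Dock8 (97). Fancc belongs to the Fanconi anaemia pathway of crosslink repair.

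**Figure D2:**
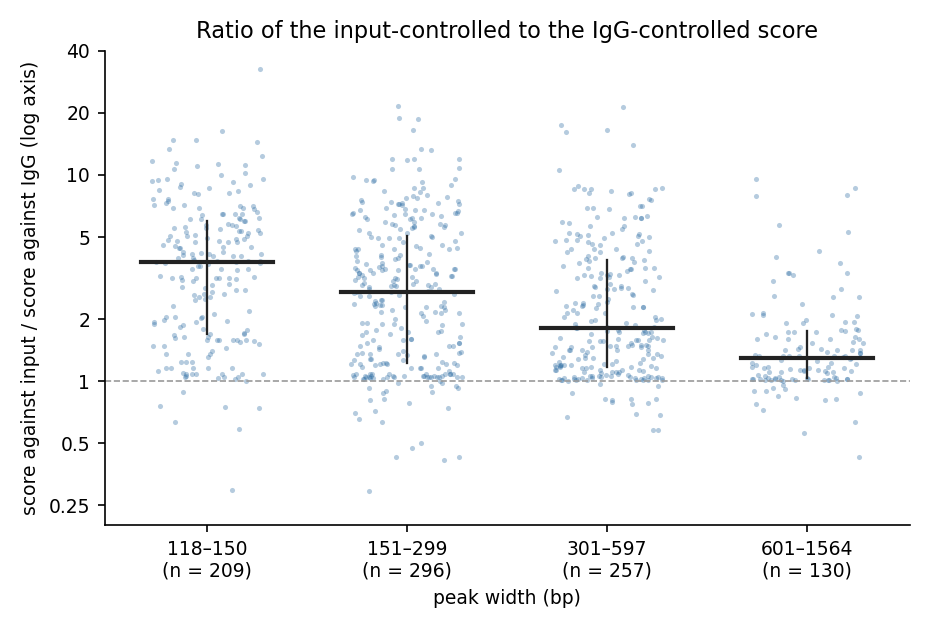
Score against input divided by score against IgG (y axis, log scale) for the 892 peaks with a partner in the input-controlled list, by peak width in bp (x axis); points are peaks, horizontal bars medians, vertical bars quartiles and the dashed line a quotient of 1. The median fell from 3.78 in the narrowest class to 1.30 in the widest; 1 peak nearest Creg1, with a quotient of 1024, lies above the axis.

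Of the 897 peaks, 790 (88.1%, 95% Wilson interval 85.8% to 90.03%, counting error only) held an alternating tract. To set this beside the genome, windows of the median width, 255 bp, were taken at the peak centres and as consecutive tiles over the known bases of all chromosomes. A tract lay in 84.7% of the peak windows (82.2% to 86.9%) and in 4.68% of 10381964 tiles. The longest tract of a peak had a median length of 56 bp (quartiles 37 and 163 bp, longest 869 bp). Its centre lay a median of 64.5 bp from the peak centre, and within 100 bp in 536 of 790 peaks (67.8%). In 304 peaks (38.5%) the longest tract ran past an edge of the peak. Several tracts were the rule: 552 tract peaks (69.9%) held at least 2 and 210 (26.6%) at least 5. Score followed tract length little (rho = 0.05 across 790 peaks).

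Composition showed which repeats these were. A perfect CA or TG repeat of at least 20 bp lay in 65.1% of the peak windows and in 2.50% of genome tiles. The hexamer repeat ACACGC, which carries a CpG in every unit, lay in 25 windows (2.79%, 1.89% to 4.08%) and in 0.0140% of tiles. ACACTC, which carries CTC in every unit, lay in 10 windows (1.11%, 0.607% to 2.04%) and 0.00151% of tiles. AG repeats, which are not alternating, were found in 4.57% of windows and 1.14% of tiles. AT repeats, which are fully alternating, were found in 2 windows (0.223%, 0.0612% to 0.809%) and 0.367% of tiles. Tetranucleotide repeats of AGAT were as rare, at 0.223% of windows and 0.255% of tiles. The window share was 26.04 times the tile share for CA repeats and 0.607 times for AT repeats.

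The interrupting steps were counted with 10-bp words searched on both strands, overlapping copies included, which were chosen after the sequences had been seen. TGTGAGTGTG, with its GA step, lay in 422 peak windows (47.0%, 43.8% to 50.3%) and in 0.412% of tiles. TGTGCGTGTG, with its CpG, lay in 201 windows (22.4%, 19.8% to 25.3%) and 0.276% of tiles. The uninterrupted TGTGTGTGTG lay in 93.0% of windows and 4.69% of tiles. TGTGTATGTG, with a TpA, lay in 53.2% of windows and 1.32% of tiles, and TGTGCATGTG in 10.3% and 0.647%. The window share divided by the tile share was 114 for the GA word, 81.3 for the CpG word, 40.2 for the TpA word, 19.8 for the uninterrupted word and 15.9 for the CA-step word.

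Wide peaks were mainly arrays with such interruptions. Peaks with at least 5 copies of the GA or CpG word made up 20 of the 213 peaks up to 150 bp (9.39%), 108 of 297 up to 299 bp (36.4%), 142 of 257 up to 597 bp (55.3%) and 106 of the 130 wider ones (81.5%). A wider peak has more room for copies, so the shares of these classes are not on an equal footing. The 280 peaks with at least 5 GA but fewer than 5 CpG words had medians of 402 bp in width and 150 in score. For the 86 with at least 5 CpG but fewer than 5 GA words, these were 417.5 bp and 144. For the 521 with fewer than 5 of either, they were 186 bp and 88. This grouping leaves out TpA steps, although 226 of the 897 peaks held at least 5 copies of the TpA word. The 521 are therefore not all uninterrupted repeats. Of the 18 peaks shared with the 100K list against IgG, 9 had at least 5 CpG words, 7 had at least 5 GA words and 2 had fewer than 5 of either. Over all 897 peaks, 96 had at least 5 CpG words and 290 at least 5 GA words. In the widest class, which held 16 of the 18, the counts were 30 and 81 of 130. The GA count of the shared peaks was thus no mark of them. Within the widest class the median quotient of input to IgG score was 1.29 with and 1.33 without at least 5 copies of either word. In the narrowest class it was 4.52 and 3.73. In the classes between, it was 3.11 with and 2.37 without at 151 to 299 bp, and 1.63 with and 2.42 without at 301 to 597 bp.

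CpG were unevenly spread over the peaks. While 462 peaks (51.5%) held no CpG, the mean was 1.30 CpG per 100 bp, compared with 0.823 in genome tiles, and the peaks were richer in G and C (mean 48.2% against 41.7%). The longest tract held a CpG in 267 of 790 tract peaks (33.8%, 30.6% to 37.2%) and a TpA in 440 (55.7%). Over the genome, 133070 of 586442 tracts of at least 20 bp held a CpG. The longest tract of a peak is picked by length, so the 2 sets are not alike in length. No genome share was set beside the TpA count, so no excess of TpA is read from it. CpG without TpA was found in 106, TpA without CpG in 279, both in 161 and neither in 244. The share of longest tracts with a CpG was 22.6% in peaks up to 150 bp and 44.4% in peaks of 601 bp or more. The extreme was Fam71e2, where an intron held an 869-bp tract with 97 CpG under a 1083-bp peak of score 848 (chr7:4755263-4756345). In an intron of Arid5b, which encodes an AT-rich interaction domain protein, a 735-bp tract held 62 CpG (score 1043), and nearest Dusp7 a 568-bp tract held 73 CpG although the peak scored only 77. Other long tracts held almost none: 850 bp nearest Pik3r1 with 0 CpG and 60 TpA (score 197), 793 bp in Col4a4 with 2 CpG and 59 TpA (score 88), 743 bp in Spag9 with 0 CpG and 46 TpA (score 72), and 647 bp nearest Il2ra with 1 CpG and 58 TpA (score 155).

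Seen from the genome, few alternating tracts were under a peak, and their share rose steeply above 100 bp. Of 586442 tracts of at least 20 bp, 3165 (0.540%, 0.521% to 0.559%) overlapped a peak. The share was 0.621% at 20 to 29 bp and 0.313% at 40 to 59 bp. It was 2.19% (168 of 7674) at 100 to 199 bp, 18.5% (132 of 714, 15.8% to 21.5%) at 200 to 399 bp and 42.2% (43 of 102, 33.0% to 51.9%) at 400 bp or more. Longer tracts offer more bases to overlap, and tracts in 1 peak are not independent. Tracts no more than 50 bp apart were also joined into arrays, a choice made after the data were seen. The share of arrays under a peak was then 0.141% at 20 to 29 bp, 4.08% at 200 to 399 bp and 19.1% at 400 bp or more.

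At a given length the share depended on the steps within the tract. At 200 to 399 bp, 25 of 35 tracts with CpG but no TpA were under a peak (71.4%, 54.9% to 83.7%), compared with 53 of 374 with TpA but no CpG (14.2%, 11% to 18.1%) and 51 of 299 with both (17.1%, 13.2% to 21.7%). At 400 bp or more the counts were 6 of 6, 14 of 47 and 23 of 49. At 100 to 199 bp, 26 of 300 tracts with CpG alone (8.67%) and 70 of 5121 with TpA alone (1.37%) were under a peak. Tracts with neither step stood at 11 of 29 (37.9%, 22.7% to 56.0%) in that range. At 200 to 399 bp, 3 of 6 such tracts were under a peak. Below 100 bp the shares of tracts with and without CpG stayed within 0.270% and 0.683%. That split pools tracts with and without TpA, which differed. At 20 to 29 bp the share was 1.78% with neither step, 0.711% with CpG alone, 0.390% with TpA alone and 0.208% with both. At 60 to 99 bp these were 1.04%, 0.940%, 0.294% and 0.547%. The order by TpA also held from 30 to 59 bp, but narrowly at 40 to 59 bp (0.358% with neither, 0.345% with both). After tracts had been joined into arrays, the share at 400 bp or more was 20.3% (17.3% to 23.7%) with and 16.7% (13.05% to 21.2%) without a CpG, and these intervals overlap.

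**Figure D3:**
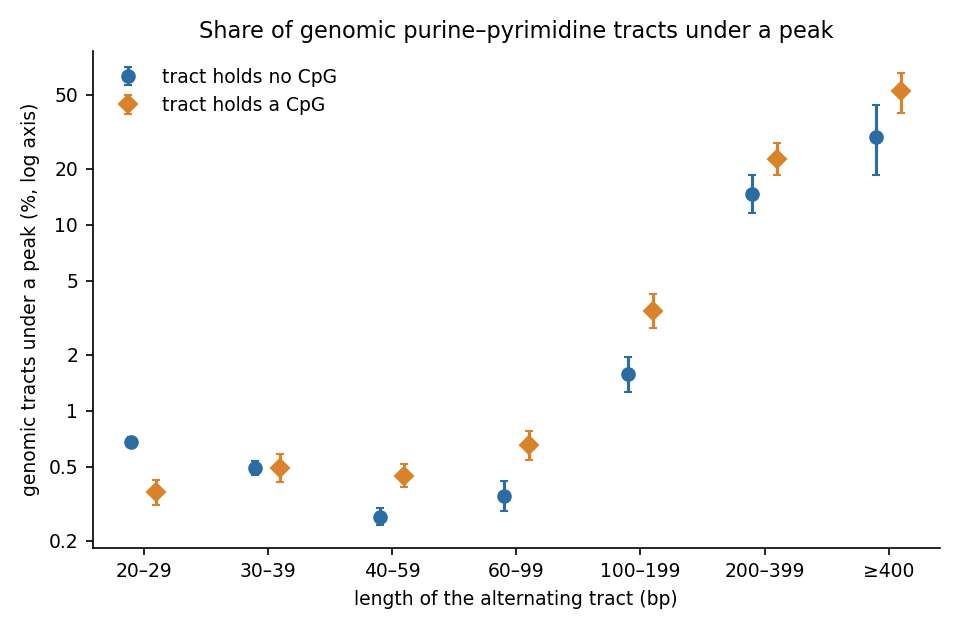
Percentage of genomic alternating tracts that overlapped a peak (y axis, log scale) by tract length in bp (x axis), for tracts with and without a CpG; bars are 95% Wilson intervals. Both series rise from under 1% below 100 bp to 52.7% with and 29.8% without a CpG at 400 bp or more.

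The 107 peaks without an alternating tract were weaker and narrower, with a median score of 64 and a median width of 155 bp, compared with 123.5 and 268.5 bp for the peaks with one. They fell into several kinds. In 33 the longest run was 17 to 19 bp, just under the limit, as nearest Esr2 and Mavs (score 513) and in Hhat (score 611). At least 5 copies of the GA word lay in 26 of the 107 peaks, some of them also among those 33, as in Hhat. Perfect tandem repeats of at least 20 bp were found in 31, and 13 of these were AG repeats. Examples of tandem repeats without alternation were ACT units in an intron of Rasgrf2, a Ras exchange factor gene (score 724), ACTCT units in an intron of 1700123O12Rik (score 301) and AG units nearest Pcdh17, a protocadherin gene (score 249). Here 134, 124 and 140 bases at the peak centres are printed, with tandem units in capitals.
Rasgrf2 intron, chr13:92043928-92044061: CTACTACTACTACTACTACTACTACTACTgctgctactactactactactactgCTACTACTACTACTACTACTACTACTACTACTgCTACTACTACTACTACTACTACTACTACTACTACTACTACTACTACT
1700123O12Rik intron, chr4:10666078-10666201: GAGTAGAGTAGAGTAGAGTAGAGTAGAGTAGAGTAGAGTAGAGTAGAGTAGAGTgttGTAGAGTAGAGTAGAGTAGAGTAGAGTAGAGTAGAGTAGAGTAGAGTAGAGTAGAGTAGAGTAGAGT
nearest start Pcdh17, chr14:84947530-84947669: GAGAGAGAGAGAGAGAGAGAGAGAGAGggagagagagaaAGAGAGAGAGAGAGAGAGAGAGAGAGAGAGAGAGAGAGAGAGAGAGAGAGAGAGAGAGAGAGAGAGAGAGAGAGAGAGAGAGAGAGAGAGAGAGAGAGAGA

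All 3 were narrow (134, 124 and 149 bp), and their scores against input were 6.21, 6.84 and 3.73 times those against IgG. A wide peak in Rab3c, a small GTPase gene (score 855, 584 bp), held neither an alternating run of 14 bp nor a perfect tandem repeat. It held 14 copies of the GA word and so was an array of the third kind. The remaining tract-less peaks of the 10 highest were in Zdhhc9 on X (465), nearest Gm21778 on Y (310) and in Adra1b (242). Repeats were also visible in the masking of the assembly, which writes repeats in lower case: a mean of 92.3% of the bases of a peak were lower case, against 36.4% in genome tiles, and 555 peaks (61.9%) were lower case throughout. Only 34 peaks were lower case over under 50% of their bases, and 27 of these had no tract.

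Most peaks lay in introns or between genes. The centre lay in an intron for 467 peaks (52.1%), between genes for 413 (46.0%), in untranslated regions for 7, in coding sequence for 5 and in non-coding exons for 5. The share of tile centres in each of these features was not taken, so nothing particular to the peaks is read from these counts. The coding peaks were in Kcnh2 (score 38), a potassium channel gene, Rasgrf2 (35), Nlgn3 (24), a neuroligin gene, Adgrl1 (20) and Dyrk2 (19), all in the lowest quartile of scores, without a tract and with no lower-case base. Peak centres lay in genes slightly more often than tiles, at 54.0% (50.7% to 57.2%) and 46.0%. Within 10 kb of a protein-coding start lay 14.7% of peaks (12.5% to 17.2%) and 13.7% of tiles, and within 3 kb 3.90% (2.82% to 5.38%) and 4.57%, so no excess at starts was detectable. In 422 genic peaks the repeat could be oriented: TG was on the sense strand in 232 (55.0%, 50.2% to 59.7%) and CA in 190. The share over all genic tracts was not taken, so no strand preference of the peaks is read from these counts.

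Peak centres fell in 433 genes, of which 391 held 1, 33 held 2 and 9 held 3. The protein-coding hosts had a median span of 119 kb, against 17.4 kb for all 21910 protein-coding genes. A long gene is more likely to hold any position, and genes that hold tile centres were not compared. Nothing particular to the peaks is therefore read from this difference. The 9 genes with 3 peaks were Stau2 (scores 56, 204 and 132), Tshz2 (36, 1211 and 258), Fgfr2 (106, 801 and 223), Hdac9 (75, 45 and 100), Zfp516 (92, 153 and 26), Gm20388 (136, 324 and 66), Gm37240 (28, 69 and 31), Gm46323 (53, 101 and 113) and CT485616.1 (214, 77 and 77). Stau2 encodes an RNA-binding protein, Fgfr2 a growth factor receptor and Hdac9 a histone deacetylase. The annotated spans of Fgfr2, Gm20388 and Gm37240 are 2961, 4435 and 1391 kb, so their peaks were not close together.

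Genes of germ cell, DNA methylation and repair pathways were looked up next to the peaks. With a flank of 10 kb, 545 of 21910 protein-coding genes (2.49%) had a peak. Of 8 germ cell genes, Piwil4 and Pou5f1 had one within that distance. The peak 5.94 kb from Piwil4, which encodes a PIWI protein of foetal male germ cells, scored 184 and was alternating over its whole 221 bp. By the naming rule above it is the Fut4 peak. The peak 2.67 kb from Pou5f1, the pluripotency factor whose promoter drives the reporter transgene, scored 27 and had no tract. By the same rule it is the Tcf19 peak. Piwil4 was also the single member with a peak among 15 piRNA pathway genes. None of 8 DNA methylation genes, 6 topoisomerase genes, 15 double-strand break repair genes or 6 paternally methylated imprinted loci had a peak within 10 kb. With lists this short, nothing particular to them is read from these counts.

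By chromosome, the autosomes held 889 peaks, or 0.361 per Mb (95% exact Poisson interval 0.338 to 0.386). Chromosome 2 had the most (65) and chromosome 19 the fewest (30), and the density ran from 0.268 per Mb on chromosome 4 to 0.537 on chromosome 17. The density of alternating tracts varied less, by 1.25 times between chromosome 7 and chromosome 5 (251 per Mb), and did not order the autosomes by peak density (Spearman rho = 0.31 and Pearson r = 0.20 over 19 chromosomes of 1 library pair). Per 10000 tracts, 36.0 were under a peak on chromosome 10 (29.98 to 43.2), compared with 89.3 on chromosome 6 (79.7 to 100.1) and 89.8 on chromosome 17 (78.1 to 103). Tracts in 1 peak are not independent, so these intervals and those for X are too narrow. Chromosome 10 had 114 such tracts and 46 peaks, and chromosome 6 had 294 and 58. Their peak densities were close, at 0.352 (0.258 to 0.469) and 0.387 (0.294 to 0.501) per Mb.

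Chromosome X held 6 peaks, 0.0351 per Mb (0.0129 to 0.0764), and Y held 2, 0.0218 per Mb (0.00264 to 0.0787). X was poorer in tracts than the autosomes, with 148 against 223 per Mb, but the difference in peaks was larger: 2.76 of 10000 tracts on X (1.34 to 5.70) and 57.4 on the autosomes (55.5 to 59.5) were under a peak. Male cells carry 1 X and 1 Y, and the share of this difference that copy number accounts for was not tested. The 6 X peaks lay in introns of Zdhhc9 (465), Rp2 (93) and Pak3 (88), in coding sequence of Nlgn3 (24), and nearest Xlr (333) and Tgif2lx1 (44). Alternating tracts were found in those of Rp2 and Xlr alone. Zdhhc9 encodes a palmitoyltransferase and Xlr is an X-linked lymphocyte-regulated gene expressed in germ cells. Both Y peaks, nearest Gm3376 (68) and Gm21778 (310), held AG repeats and no tract. Of 10 tracts of at least 200 bp on X none was under a peak, which allows a share of up to 27.8% (Wilson), compared with 175 of 787 on the autosomes (22.2%).

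**Figure D4:**
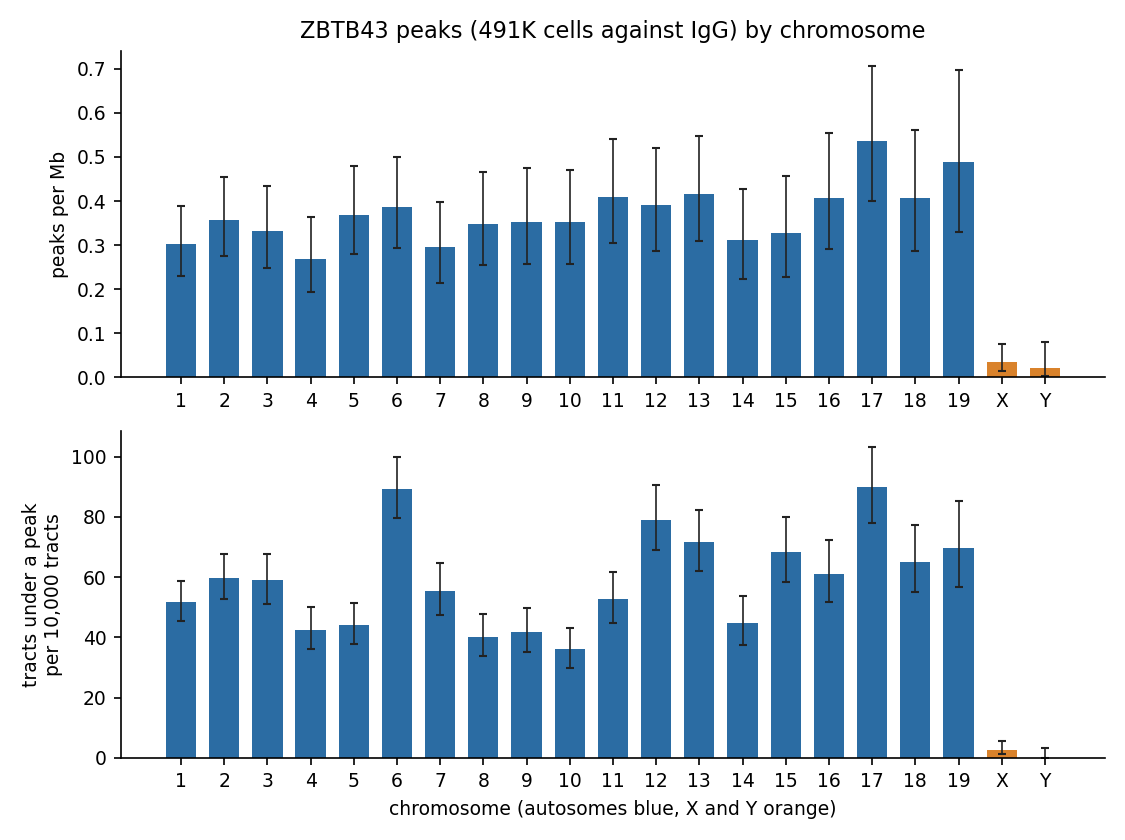
Peaks per Mb with 95% exact Poisson intervals (upper panel) and alternating tracts under a peak per 10000 tracts with 95% Wilson intervals (lower panel), by chromosome. The Wilson intervals treat tracts as independent, although several can lie in 1 peak. Autosomes lie between 0.268 and 0.537 peaks per Mb, X at 0.0351 and Y at 0.0218.

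Along the autosomes, peaks were most frequent towards the distal ends. When each autosome was cut into 10 equal parts from its centromeric end, the last part held 164 of 889 peaks (18.4%, 16.04% to 21.1%) and the one before it 128 (14.4%, 12.2% to 16.9%). The fifth part held 62 (6.97%, 5.48% to 8.84%). Tracts also increased distally, from 9.74% of all autosomal tracts in the fifth part to 12.9% in the last, but less steeply. Per 10000 tracts, 31.0 were under a peak in the fifth part, 81.9 in the last and 102 in the first, which contains the unsequenced centromeric bases and only 6.94% of the tracts.

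Most peaks stood alone. The 876 distances between neighbours had a median of 1.41 Mb (quartiles 0.498 and 3.53 Mb), and the longest was 47.5 Mb on X. Of 2737 windows of 1 Mb, 2050 (74.9%) held no peak, 526 held 1 and the fullest held 5. Random positions were not compared, so nothing particular to the peaks is read from the number of empty windows. The windows with 5 were at 142 to 143 Mb of chromosome 6, which takes in peaks at Slco1a5, Recql and Cmas and 2 peaks nearest Kcnj8, and at 75 to 76 Mb of chromosome 18, with peaks at Dym and Zbtb7c. Short distances formed a group of their own: 27 pairs were at most 1 kb apart, 10 at 1 to 10 kb and 42 at 10 to 100 kb. The smallest distance was 128 bp.

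**Figure D5:**
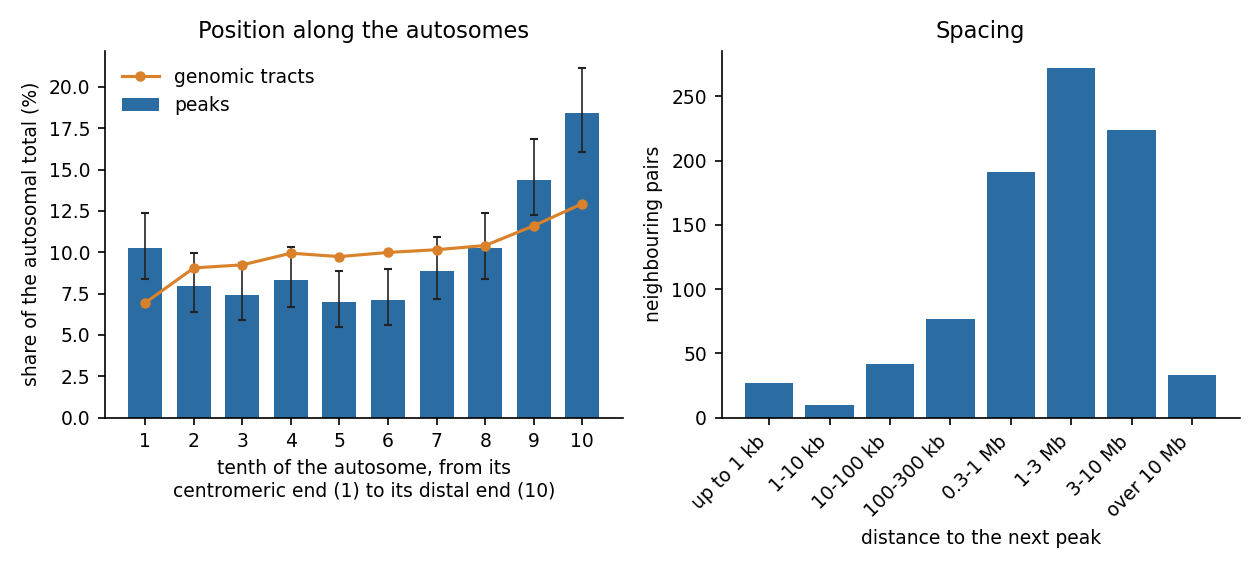
Left, percentage of the 889 autosomal peaks (bars, 95% Wilson intervals) and of autosomal tracts (line) in each of 10 equal parts of the chromosome, from the centromeric end (1) to the distal end (10). Right, number of neighbouring peak pairs by the distance between them; 272 of 876 pairs lie 1 to 3 Mb apart and 27 within 1 kb.

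Peaks no more than 10 kb apart were joined into clusters. This gave 34 clusters with 71 peaks (7.92%), of which 31 were pairs and 3 were triplets, and 826 single peaks. The triplets were in Gm46323 (scores 53, 101 and 113 over 1473 bp), CT485616.1 (214, 77 and 77 over 1824 bp) and Zfp516 (92, 153 and 26 over 7654 bp). In 22 of the 27 pairs within 1 kb, at least 20 bp of an alternating tract lay between the peaks, so that the pair flanked repeat sequence. In 2 of them the longest tract was the same on both sides: a 792-bp tract in an intron of Wdhd1, a gene of DNA replication, carried peaks of score 45 and 171 at 170 bp from each other, and a tract at Sftpb, the surfactant protein B gene, carried peaks of 179 and 100 at 140 bp. Scores within a pair could be far apart. Nearest Creg1 they were 13 and 2136 at 133 bp from each other, and both overlapped the same input-controlled peak of score 13313. Whether such pairs are 1 binding region split by unmapped repeat sequence was not tested.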

How the data were processed

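ChIP–seq libraries of 15.5 dpc prospermatogonia were grouped by their titles, 1 library per group. Per the methods and processing notes, the authors trimmed reads (Trim Galore 0.6.0), aligned them to mm10 (BWA 0.7.17), kept 1 copy of duplicates and properly paired alignments of high mapping quality, called peaks (MACS2 2.2.7.1) against IgG or input without pooling, and removed blacklisted regions. The mapping filter can remove fragments inside repeats. The deposited score was read as 10 times −log10 q, cut to a whole number, as its lowest value, 13, corresponds to q = 0.0501. Depths are unknown from peak lists. Tracts, tandem repeats (units of 1 to 6 bp, at least 20 bp) and genes (GENCODE M21) were taken from GRCm38.p6, 1-based. Python 3.11.15, NumPy 2.4.6 and SciPy 1.17.1 were used, and tract finding was tested on simulated sequence. Members, lists and rules were chosen with earlier results of these data known. Named loci were the 20 highest and 5 lowest scores, the widest and narrowest peaks, the longest tracts, triplets, sex-chromosome and coding peaks, the 10 highest without a tract, genes with 3 peaks and list members, and not all of these are printed. Items withheld from this text are not reported here. Other score, width, tract and overlap limits were tried.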

Additional observations from a re-analysis of the deposited data

How the results depend on the processing

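No paired analysis was possible because antibody and control were 1 library each, and no replicate could be left out. Of 35 alternatives to 20 values, 17 stayed within the counting interval or, for counts, within 1.5 times, and 18 moved. With scores of 50 or more, the median width was 309 bp, clusters numbered 22, 91.0% of peaks held a tract and 0.482% of genomic tracts were under a peak. With a gap of at most 100 kb there were 72 clusters. Runs of at least 30 or 14 bp gave tract shares of 74.2% and 93.0%, and 200 bp at the centre gave 81.7%. Tracts wholly inside a peak made up 0.410%, and joined tracts 0.240%. Counting any tract, 40.9% of tract peaks held a CpG. Within 3 kb of a start lay 3.90% of peaks. With gene bodies alone, 0 germ cell and 0 piRNA genes had a peak, and with 50 kb either side 1 double-strand break repair gene (Mre11a). The peak 37.8 kb from Mre11a was the same one that was counted for Piwil4. A reciprocal overlap of at least 50% gave 91.3% for the input-controlled 491K list, and 0.111% and 29.1% for the IgG- and input-controlled 100K lists. Each move follows from the changed limit. The lists hold no read depth, and absence of a peak is not absence of binding.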
